A study of Homo sapiens with 6 samples.

Results

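Classical cadherins are calcium-dependent adhesion proteins that hold neighbouring cells together through their outer domains and reach the actin skeleton through the catenins bound to their tails. Beta-catenin (CTNNB1) or plakoglobin (JUP) binds the end of the tail and recruits alpha-catenin (CTNNA1), while p120-catenin (CTNND1) binds next to the membrane and keeps the cadherin at the cell surface. Epithelial cells, bile duct cells among them, carry mainly E-cadherin (CDH1), and a gain of N-cadherin (CDH2) with a loss of E-cadherin is known as the cadherin switch.

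The 10 genes described here are the cadherins CDH1, CDH2, CDH3, CDH6, CDH11 and CDH17 and the catenins CTNNA1, CTNNB1, CTNND1 and JUP, taken by gene symbol from the 23569 genes of the table. They were selected on the FPKM difference between oeSTUB1 and oeNC cells in these same libraries as well as on their place in the complex, so their differences between the groups are given as a description, without a test of their own. All 10 were found, and 9 had the mean of at least 0.1 FPKM over the 6 libraries that was required for the comparison across all genes. CDH3 did not. CDH6 passed only through the group in which it was higher, since 8 of the 10 reached 0.1 FPKM in the control group and 9 in the other.

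RNA was sequenced from TFK1, an established line of cholangiocarcinoma, the cancer of the bile ducts. The control libraries (oeNC, n = 3) came from cells that carried a negative control lentivirus, and the others (oeSTUB1, n = 3) from cells with stable lentiviral overexpression of STUB1, a chaperone-dependent E3 ubiquitin ligase. The lentiviral protocol selected cells with puromycin, and no other treatment is stated for either line. Whether the lines are pools or single clones, and whether libraries of a group came from separate cultures, is not stated, so spread and p-values cover only these libraries. Values are FPKM, the number of fragments of a gene after division by gene length and by library total. A gene was called where limma, fitted to log2(FPKM + 0.1) of all 15353 genes tested, gave a p-value below 0.05 after Benjamini-Hochberg adjustment, and log2 fold changes are oeSTUB1 minus oeNC on that scale.

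Library totals lay between 33106564 and 36744521 fragments. STUB1 itself was at 32.9, 33.0 and 30.9 FPKM in oeNC and at 61.4, 75.0 and 61.9 FPKM in oeSTUB1 (log2 fold change 1.03, SE 0.10, adjusted p = 0.00064 from limma). In GENCODE release 29, 42.4% of its exon bases are shared with the neighbouring gene JMJD8. In oeSTUB1 replicate 2 long genes were low, with a rank correlation across genes of -0.56 between gene length and the difference from its group mates. This correlation was 0.47 and 0.38 in oeSTUB1 replicates 1 and 3 and between -0.13 and 0.07 in oeNC. Each library was set against the mean of its group mates, so replicate 2 enters the values of oeSTUB1 replicates 1 and 3. The value without oeSTUB1 replicate 2 is therefore given for each of the 9 tested genes, and for STUB1 it was 0.93. Of the bile duct markers, KRT18, KRT8 and KRT7 were abundant, at 3960, 3220 and 502 FPKM in the oeNC mean, whereas KRT19 was at 0.453 FPKM and CFTR at 0.00149 FPKM in oeNC. The 8 bile duct markers summed to 7360 to 7940 FPKM in oeNC and to 4690 to 6240 FPKM in oeSTUB1, with 1 called higher (KRT19) and 3 called lower (KRT8, KRT18 and EPCAM).

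CDH1 and CDH2 moved in opposite directions and CTNNA1 and CTNNB1 had closely similar levels in the groups. CDH2 was 24.6-fold higher in mean FPKM in oeSTUB1 cells and CDH6 was 6.01-fold higher. CDH17 was 2.64-fold lower, CDH1 2.08-fold lower and JUP 1.5-fold lower. Among the 9 tested genes 2 were called higher and 3 lower, while 13.6% of all genes tested were called, 7.01% higher and 6.59% lower. Of the 9, 2 were called higher and 2 lower with a change over 2-fold, while 5.2% of all genes tested were, 2.79% higher and 2.4% lower. The values of the groups did not overlap for 6 of the 9, 3 of them higher and 3 lower, as was so for 38.8% of all genes tested, 21.5% higher and 17.3% lower. Nothing is read from these counts, because the contrast was known when the list was made.

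**Figure D1:**
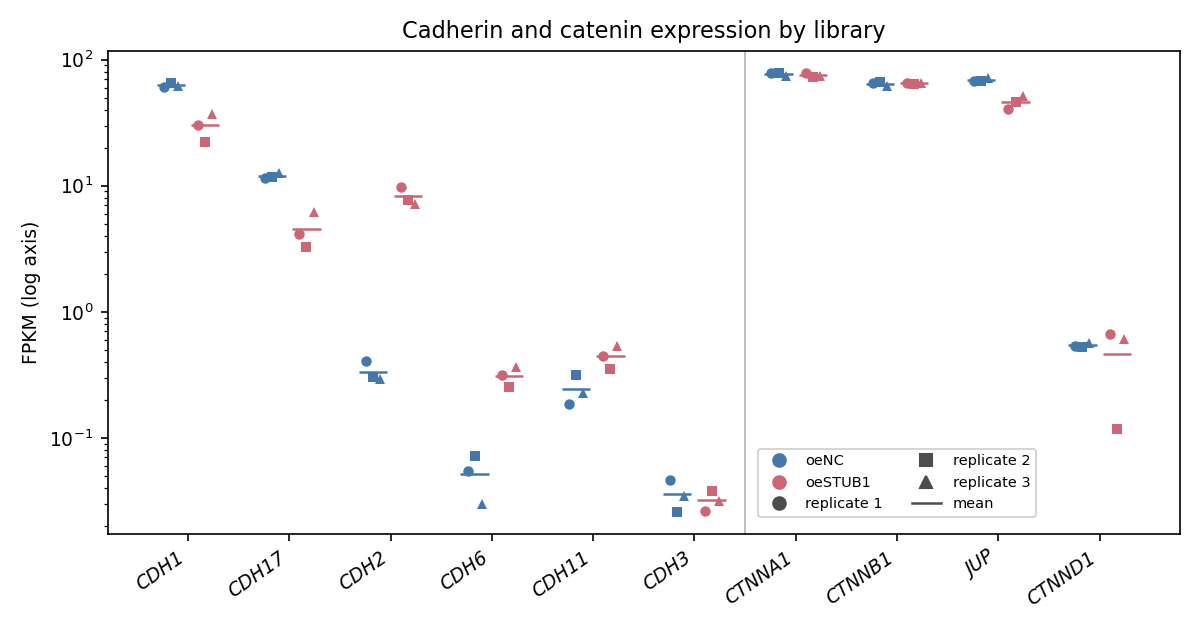
FPKM (log axis) of the 6 cadherins and 4 catenins in each library, oeNC in blue and oeSTUB1 in red, with the replicate as marker shape and the group mean as a line. CDH2 lies between 0.291 and 0.409 FPKM in oeNC and between 7.20 and 9.70 FPKM in oeSTUB1, and CTNND1 of oeSTUB1 replicate 2 lies at 0.118 FPKM, far below the other libraries.

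In oeNC cells the levels, compared per length of gene, followed the order CTNNA1, JUP, CTNNB1, CDH1, CDH17, CTNND1, CDH2, CDH11, CDH6 and CDH3. CTNNA1 led with 76.8 ± 2.57 FPKM (SD, n = 3) and CDH3 came last with 0.0356 ± 0.0104 FPKM (SD, n = 3). The libraries of CTNNB1 and CDH1, of CDH2 and CDH11, and of CDH6 and CDH3 overlapped, so these neighbours did not differ beyond their spread. In oeSTUB1 cells CTNNB1 stood above JUP and CDH2 above CDH17, without overlap of the libraries in either pair. There the levels of CTNND1, CDH11 and CDH6 overlapped from one to the next.

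E-cadherin is the main cadherin of epithelial junctions. Its gene CDH1 lies on the plus strand of chromosome 16 from 68737225 to 68835548 (GRCh38, GENCODE release 29). CDH1 was at 60.8, 65.0 and 61.8 FPKM in oeNC replicates 1, 2 and 3 and at 30.5, 22.3 and 37.3 FPKM in the oeSTUB1 replicates. Every oeSTUB1 library was below every oeNC library, and oeSTUB1 replicate 2 was the lowest. These levels rest on 10291, 10994 and 11085 fragments against 5131, 3598 and 6219. The log2 fold change was -1.09 (SE 0.17, 95% interval -1.48 to -0.70), and it was -0.89 without oeSTUB1 replicate 2. CDH1 was called in both cases. In oeSTUB1 cells CDH1 remained the most abundant of the 6 cadherins.

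N-cadherin is the cadherin of neural and mesenchymal cells and also of hepatocytes. Its gene CDH2 lies on the minus strand of chromosome 18 from 27950966 to 28177446. The oeNC libraries held 65, 48 and 49 CDH2 fragments, or 0.409, 0.302 and 0.291 FPKM. The oeSTUB1 libraries held 1532, 1179 and 1128 fragments, or 9.70, 7.77 and 7.20 FPKM. The groups were far apart, with replicate 1 the highest in each. The log2 fold change was 4.26 (SE 0.16, 95% interval 3.88 to 4.64) and was 4.30 without oeSTUB1 replicate 2. Because CDH2 is low in oeNC, this value depends on the pseudocount and was 2.78 with a pseudocount of 1.

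Relative to one another, CDH1 stayed in excess. CDH2 made up 0.668%, 0.462% and 0.468% of the summed FPKM of CDH1 and CDH2 in the oeNC libraries. It made up 24.1%, 25.9% and 16.2% in the oeSTUB1 libraries, the share being lowest in replicate 3, where CDH1 was highest. CDH1 thus still accounted for 78.0 ± 5.16% (SD, n = 3) of the pair in oeSTUB1 cells. The gain of CDH2 did not offset the lower CDH1 in amount. The summed FPKM of CDH1, CDH2, CDH3, CDH6 and CDH11, the members whose tails bind catenins, was 61.5, 65.7 and 62.4 in oeNC and 41.0, 30.7 and 45.4 in oeSTUB1. Divided by CTNNB1, this sum was 0.983 ± 0.0427 in oeNC and 0.598 ± 0.111 in oeSTUB1 (SD, n = 3 each), without overlap. These sums and ratios were chosen after the values were seen. In RNA of whole cultures, a change in the number of cells that express a gene and a change in RNA per cell cannot be told apart, so the shares do not say whether single cells carried both cadherins.

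**Figure D2:**
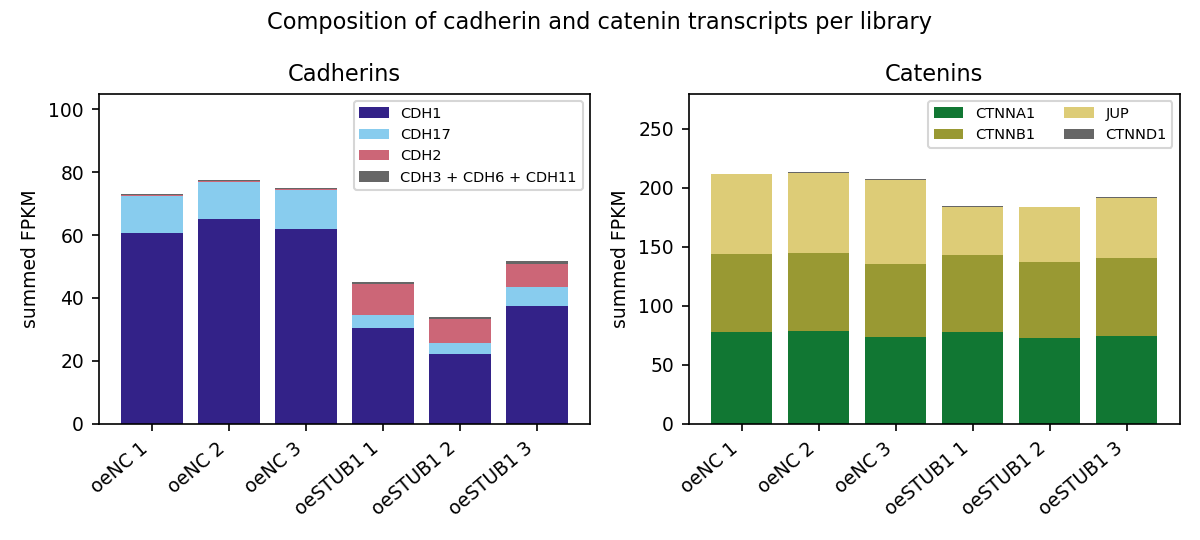
Stacked bars of FPKM per library from 0, for the cadherins (left, CDH1, CDH17, CDH2 and the sum of CDH3, CDH6 and CDH11) and the catenins (right). The 6 cadherins sum to 73.1 to 77.5 FPKM in oeNC and to 33.9 to 51.6 FPKM in oeSTUB1, where a CDH2 segment appears, and JUP is the catenin segment that is smaller in oeSTUB1.

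CDH17, or liver-intestine cadherin, has a short tail and mediates adhesion without binding catenins. It is an intestinal gene that also appears in tumours of the digestive tract, and it lies on chromosome 8. CDH17 was at 11.6, 11.8 and 12.5 FPKM in oeNC and at 4.15, 3.26 and 6.17 FPKM in oeSTUB1. No libraries overlapped, and the order of the oeSTUB1 replicates was the same as for CDH1, with replicate 2 lowest and replicate 3 highest. The log2 fold change was -1.43 (SE 0.20, 95% interval -1.90 to -0.96) and -1.22 without oeSTUB1 replicate 2. CDH17 was therefore lower by slightly more than CDH1, and the ratio of CDH1 to CDH17 FPKM was 5.23 ± 0.289 in oeNC and 6.75 ± 0.656 in oeSTUB1 (SD, n = 3 each).

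CDH6 and CDH11 are type II cadherins, CDH6 known from kidney tubules and CDH11 from bone-forming and other mesenchymal cells. Both were minor transcripts in either group. CDH6, on the plus strand of chromosome 5 from 31193750 to 31329146, had 19, 25 and 11 fragments in oeNC and 109, 85 and 126 in oeSTUB1. In FPKM this was 0.0545, 0.0718 and 0.0298 against 0.315, 0.255 and 0.367, with no overlap. The log2 fold change of 1.44 (SE 0.24, 95% interval 0.89 to 1.99) is held down by the pseudocount at such levels. It was 1.54 without oeSTUB1 replicate 2, and 2.43 with a pseudocount of 0.01.

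CDH11, on the minus strand of chromosome 16 from 64943753 to 65126112, was at 0.187, 0.314 and 0.227 FPKM in oeNC and at 0.450, 0.349 and 0.532 FPKM in oeSTUB1. The lowest oeSTUB1 library stood just above the highest oeNC library. Its log2 fold change of 0.67 (SE 0.23, 95% interval 0.14 to 1.19) was not called. The value of 0.80 without oeSTUB1 replicate 2 was called, while in the other 13 of 14 alternative fits CDH11 was not. P-cadherin (CDH3), a cadherin of basal epithelial layers, was near absence with 9, 5 and 7 fragments in oeNC and 5, 7 and 6 in oeSTUB1. CDH3 lies from 68636189 to 68722616 on chromosome 16, beside CDH1 and on the same strand.

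The catenins that bind the tail end divided into 1 that was lower and 1 that was level. JUP, or plakoglobin, the catenin shared by adherens junctions and desmosomes, lies on the minus strand of chromosome 17 from 41754604 to 41786931. It was at 67.9, 67.7 and 71.6 FPKM in oeNC and at 40.5, 46.1 and 51.5 FPKM in oeSTUB1, without overlap. Here oeSTUB1 replicate 1 was the lowest, not replicate 2. The log2 fold change was -0.59 (SE 0.10, 95% interval -0.82 to -0.36) and -0.60 without oeSTUB1 replicate 2, so that the library of low long genes made little difference.

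CTNNB1, or beta-catenin, which is also the transcriptional partner of TCF and LEF factors, lies on the plus strand of chromosome 3 from 41194741 to 41260096. It was at 65.7, 66.2 and 61.2 FPKM in oeNC and at 65.5, 64.5 and 65.7 FPKM in oeSTUB1. The groups overlapped, and the log2 fold change of 0.02 (SE 0.07) had a 95% interval of -0.14 to 0.19. Without oeSTUB1 replicate 2 it was 0.03. JUP made up 50.8%, 50.5% and 53.9% of the summed FPKM of JUP and CTNNB1 in oeNC and 38.2%, 41.7% and 43.9% in oeSTUB1. The pair was thus near parity in oeNC cells and CTNNB1 predominated in each oeSTUB1 library.

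CTNNA1, or alpha-E-catenin, the link of the complex to actin, lies on the plus strand of chromosome 5 from 138610967 to 138935034. It was at 77.9, 78.7 and 73.9 FPKM in oeNC and at 78.0, 72.9 and 74.6 FPKM in oeSTUB1. The groups overlapped, with a log2 fold change of -0.03 (SE 0.07, 95% interval -0.20 to 0.14), and the value was -0.01 without oeSTUB1 replicate 2. The intervals of CTNNA1 and CTNNB1 hold no difference larger than 0.20 in either direction on the log2 scale.

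CTNND1, or p120-catenin, lies on the plus strand of chromosome 11 from 57753243 to 57819546. It was at 0.536, 0.523 and 0.563 FPKM in oeNC and at 0.666, 0.118 and 0.606 FPKM in oeSTUB1. CTNNB1 was 119-fold above it in oeNC, although both encode core parts of the same complex. The value of oeSTUB1 replicate 2 rests on 26 fragments and those of the other 5 libraries on 121 to 153 fragments. The log2 fold change of -0.39 (SE 0.45, 95% interval -1.42 to 0.65) turned to 0.20 (SE 0.16) without this library, so no direction can be given.

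The table also lists TMX2-CTNND1, a readthrough gene from TMX2 into CTNND1, with 2 to 10 fragments in any library. In RefSeq (GRCh38.p14) its span covers 99.4% of that of CTNND1, and the gene lengths behind the FPKM were 6251 bases for TMX2-CTNND1 and 6670 for CTNND1. HTSeq, the counting tool in the submitters' processing notes, by default leaves out fragments that fall on more than 1 gene, and the setting used is not given in the sources used here. In GENCODE release 29, 4.6% of the exon bases of CTNND1 are shared with any other gene. This share need not hold for the annotation used. The gene length behind the FPKM of TMX2 was 1846 bases, well below the 6251 of TMX2-CTNND1. The annotation behind the table is not given, and the part of this overlap in the low CTNND1 values was not tested. For the other members, at most 11.1% of exon bases (CDH3) are shared with another gene there.

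**Figure D3:**
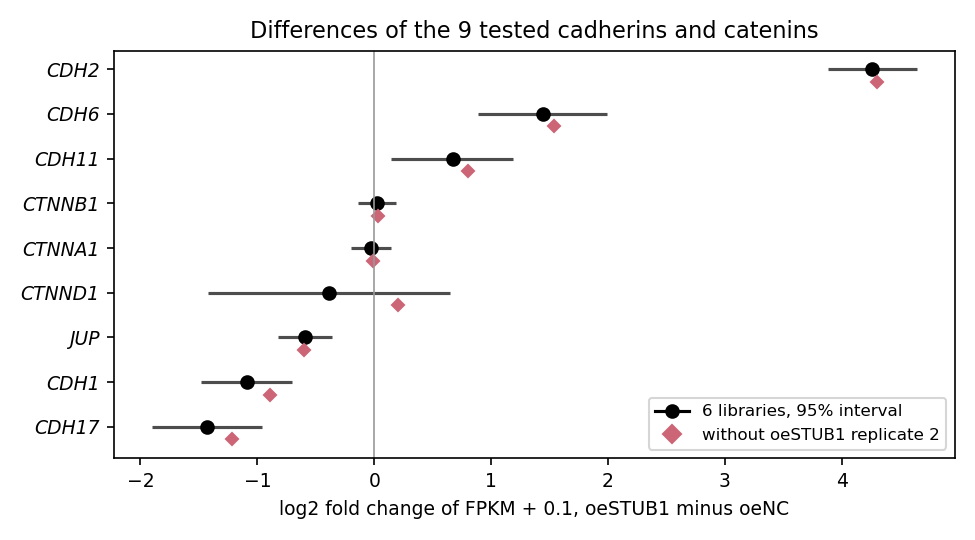
Log2 fold change of FPKM + 0.1, oeSTUB1 minus oeNC, for the 9 tested genes, with black points and 95% intervals from limma over 6 libraries and red diamonds for the fit without oeSTUB1 replicate 2. CDH2 stands at 4.26, CTNNA1 and CTNNB1 lie at -0.03 and 0.02, and CTNND1 is the gene whose value crosses 0 when the library is left out, from -0.39 to 0.20.

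Of the other genes of the system, 90 in 7 lists, 68 had enough expression to be tested, and 6 were called higher and 8 lower in oeSTUB1 cells (20.6%, beside 13.6% of all genes tested). Without oeSTUB1 replicate 2, 15 were called higher and 11 lower, while over all genes the calls went from 1076 to 2274 higher and from 1012 to 1838 lower. The lists were chosen with earlier results of these data known, so nothing is read from these counts. The genes of these lists named as rising or falling were called in the same direction without oeSTUB1 replicate 2. The median log2 fold change of a list ran from -0.35 for the epithelial transcription factors to 0.14 for the CDH1 repressors, against 0.02 for all genes. CDH20, CTNNA3 and OVOL1 were not analysed here.

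Of 7 tested cadherins outside the 10 genes, 1 rose, 1 fell and 5 were not called. R-cadherin (CDH4), a close relative of N-cadherin, rose from 0.314, 0.322 and 0.172 FPKM to 1.32, 0.982 and 0.772 FPKM (log2 fold change 1.61, SE 0.26, adjusted p = 0.0061 from limma). Kidney cadherin CDH16, which shares the short tail of CDH17, fell from 0.521, 0.461 and 0.577 to 0.101, 0.241 and 0.275 FPKM (log2 fold change -1.07, SE 0.27, adjusted p = 0.037 from limma). The call of CDH16 was lost in 7 of 14 alternatives, with adjusted p-values from limma of 0.052 to 0.13 in those. The value of CDH4 lay between 0.67 and 1.95 in 14 alternatives and that of CDH16 between -1.44 and -0.34. The groups overlapped for neither gene. Of 4 other catenins tested, the alpha-catenin relative CTNNAL1 rose (0.48, adjusted p = 0.036 from limma) and the p120 relative PKP4 fell (-0.54, adjusted p = 0.0094 from limma).

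Nectins form a second adhesion system at adherens junctions and are tied to actin by afadin. All 14 nectins and actin linkers were tested, of which 2 rose and 12 were not called. NECTIN3 went from 5.45 ± 0.154 to 8.80 ± 1.82 FPKM and the LIM protein AJUBA from 11.5 ± 1.53 to 15.9 ± 1.56 FPKM (SD, n = 3 each, adjusted p = 0.026 and 0.038 from limma). Of 15 genes of cadherin processing and turnover, 2 fell. The tyrosine kinase SRC, which phosphorylates junction proteins, went from 61.2 ± 1.36 to 41.3 ± 6.04 FPKM and the endocytic adaptor NUMB from 31.7 ± 0.538 to 24.2 ± 3.17 FPKM (SD, n = 3 each, adjusted p = 0.013 and 0.044 from limma). The calls of CTNNAL1 and NUMB were each lost in 7 of 15 alternatives those of NECTIN3 and AJUBA in 6, that of SRC in 3 and that of PKP4 in 2.

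Among 15 genes that degrade beta-catenin or act with it in the nucleus, 1 rose, 1 fell and 13 were not called. LEF1, a DNA-binding partner of beta-catenin and plakoglobin, fell from 72, 79 and 107 fragments in oeNC to 7, 1 and 4 in oeSTUB1. With means of 0.652 FPKM in oeNC and 0.0315 FPKM in oeSTUB1, LEF1 passed the filter of 0.1 FPKM only through oeNC. Its log2 fold change was -2.52 (SE 0.24, adjusted p = 0.00063 from limma). At such low levels this value depends on the processing, and it lay between -4.46 and -0.68 in 14 alternatives, called in each. The gene that rose was GSK3A, a kinase of the beta-catenin destruction complex (0.31, adjusted p = 0.033 from limma), which is named after its value was seen. The call of GSK3A was lost when any single oeNC library was left out. TCF7, TCF7L1 and TCF7L2, the other members of the LEF1 family, had log2 fold changes of -0.14, -0.28 and -0.08 and were not called, their groups overlapping. Without oeSTUB1 replicate 2 TCF7L1 was called lower (-0.42, adjusted p = 0.023 from limma), while TCF7 and TCF7L2 were at -0.02 and -0.01.

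Repressors of CDH1 bind E-box motifs in its promoter. Of 7 tested, SNAI2 (Slug) rose and 6 were not called. SNAI2 had 3, 2 and 4 fragments in oeNC and 38, 39 and 25 in oeSTUB1, or 0.0387 ± 0.0118 and 0.461 ± 0.11 FPKM (SD, n = 3 each). SNAI2 thus passed the filter of 0.1 FPKM only through oeSTUB1. Its log2 fold change was 2.00 (SE 0.24, adjusted p = 0.0018 from limma), and it lay between 0.49 and 3.37 in 14 alternatives, called in each. Among those not called, SNAI1 was at -0.29, ZEB1 at -0.16, TWIST1 at 0.67 and TCF4 at 0.71. The groups did not overlap for TCF4, which was called without oeSTUB1 replicate 2 (0.91, adjusted p = 0.0067 from limma). ZEB2, below the filter, had 3, 4 and 17 fragments in oeNC and 52, 16 and 56 in oeSTUB1, which overlapped in fragments but not in FPKM. Of 6 epithelial transcription factors tested 3 fell, while 6.59% of all genes tested were called lower. Nothing is read from this count, as the list was chosen with earlier results known. ELF3 (-0.12), FOXA2 (-0.20) and OVOL2 (0.18) were not called. CDX2, an intestinal factor known to activate CDH17, had 28, 58 and 63 fragments in oeNC and 2, 6 and 2 in oeSTUB1 (log2 fold change -1.71, SE 0.29, adjusted p = 0.0082 from limma). With means of 0.309 FPKM in oeNC and 0.0219 FPKM in oeSTUB1, CDX2 passed the filter only through oeNC. The value of CDX2 lay between -3.73 and -0.35 in 14 alternatives, called in each. FOXA1, a pioneer factor of endodermal epithelia, also fell (-0.51, adjusted p = 0.035 from limma) and is named after its value was seen. The call of FOXA1 was lost without oeNC replicate 3.

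**Figure D4:**
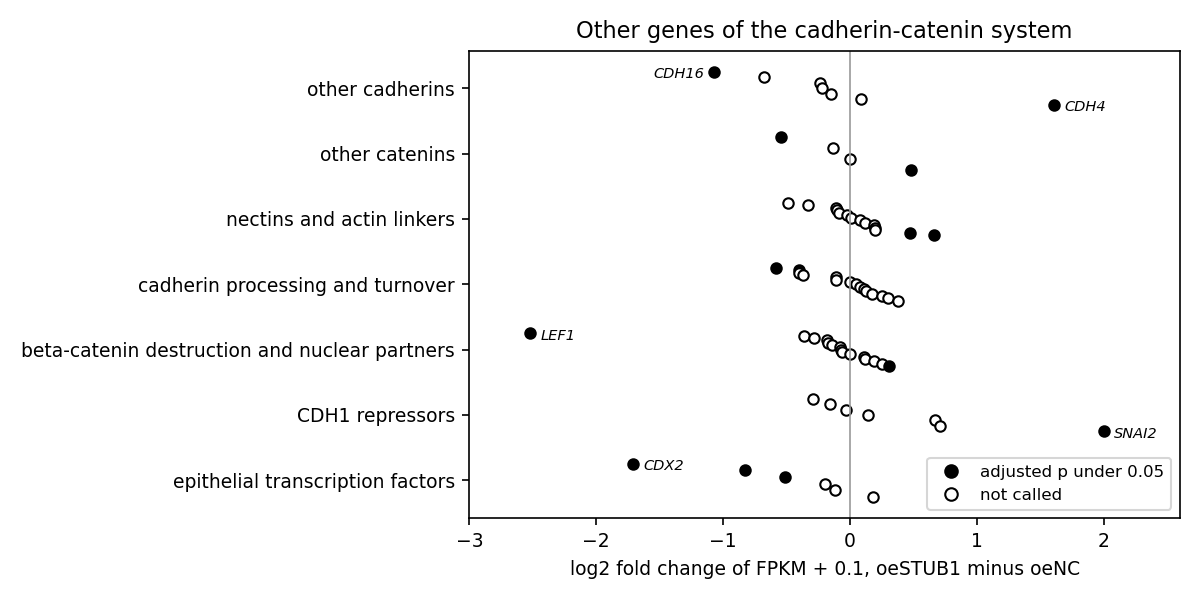
Log2 fold change of FPKM + 0.1, oeSTUB1 minus oeNC, of the 68 tested genes of 7 lists, 1 point per gene, filled where the adjusted p-value from limma was under 0.05. Most points lie close to 0, while LEF1 (-2.52), CDX2 (-1.71), CDH16 (-1.07), CDH4 (1.61) and SNAI2 (2.00) stand out.

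RefSeq promoter windows (GRCh38.p14, the 250 bases before each annotated start) were read for CDH2, CTNNA1, CTNNB1 and JUP, and not for the other members. They were searched for the E-box CACCTG and its reverse complement CAGGTG, which together cover both strands, as the motif of the SNAI and ZEB repressors. A window before 1 of the 2 starts of JUP held it 2 times, with 5 bases between the copies, and 2.53% of all 35116 windows held it 2 or more times. This window lies inside the GENCODE span of JUP, downstream of the other start. It is shown because JUP was the catenin with lower expression, on the minus strand at chr17:41786007-41786036, with the motif in capitals.
JUP: tggcccCACCTGccgagCAGGTGagcgcac
The other windows of these 4 genes did not hold these letters, which 17.5% of all windows held. Both shares are per window. Several windows were searched, so finding 1 such window among them is less rare than 2.53%. The match is a description of the sequence, and the table does not tell from which start JUP was transcribed.

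Markers of other cell types were read beside the gain of CDH2, which fibroblasts, endothelium, hepatocytes and neural cells can express. Fibroblast markers summed to 7.19 to 8.89 FPKM in oeNC and to 7.63 to 10.7 FPKM in oeSTUB1. The 3 that could be tested, COL1A1, ACTA2 and LUM, had log2 fold changes of 0.75, -0.14 and -1.03 and were not called by limma. COL1A2, DCN and PDGFRB had group means below 0.03 FPKM in both groups, while ACTA2 and COL1A1 made up most of the sum. COL3A1, THY1 and POSTN, below the filter, were higher in oeSTUB1 without overlap in FPKM. Their means were 0.0261, 0.0119 and 0.00227 FPKM in oeNC and 0.0738, 0.0731 and 0.0187 FPKM in oeSTUB1. POSTN rested on 0, 1 and 0 fragments in oeNC and 1, 4 and 3 in oeSTUB1, which overlapped. LUM was lower in oeSTUB1 without overlap, with 19, 29 and 14 fragments in oeNC and 3, 11 and 2 in oeSTUB1. Of all genes tested, 38.8% had groups without overlap. The part of these genes in the CDH2 values was not tested. Endothelial markers summed to at most 0.275 FPKM. Of the hepatocyte markers ALB and APOA1 had group means below 0.05 FPKM, and CPS1 fell from 96.6 to 43.7 FPKM (adjusted p = 0.0031 from limma). Of the neural markers TUBB3 rose from 75.5, 71.0 and 68.2 to 94.0, 119.0 and 88.3 FPKM (adjusted p = 0.035 from limma). MAP2 had a log2 fold change of -0.68 and was not called, whereas NCAM1, ELAVL3, STMN2 and GFAP had group means below 0.06 FPKM. Of the blood cell markers CD68 fell from 27.2 to 19.2 FPKM (adjusted p = 0.003 from limma) and CD3E and PTPRC stayed below 0.3 FPKM.

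The 5 genes whose log2(FPKM + 0.1) followed CDH2 most closely over the 6 libraries, among the 11375 tested genes averaging 1 FPKM or more, were GLIPR1, TIMP2, HSPH1, GALNT1 and TMEM50B. Their Pearson correlations with CDH2 ran from 0.9968 to 0.999. All 6 libraries enter each value, so the correlations mostly carry the difference between the groups, and any gene that separates the groups evenly comes out high. GLIPR1 had the most similar size of change, from 0.725, 0.706 and 0.587 FPKM in oeNC to 9.57, 8.46 and 7.83 FPKM in oeSTUB1. TIMP2, an inhibitor of matrix metalloproteinases, went from 18.7 ± 0.350 to 42.4 ± 2.42 FPKM (SD, n = 3 each).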

How the data were processed

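The authors deposited FPKM values of 6 TFK1 libraries, fragments scaled to gene length and library total. The submitters' processing notes name fastp 0.20.1, HISAT2 2.1.0, HTSeq 0.11.2, R 3.2.0, DESeq2 1.22.2 and GRCh38.p13 without roles. Annotation and strand setting are not given in the sources used here. Groups came from the sample titles. Value columns of no mapped sample numbered 0.

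Whole fragments, gene lengths and library totals were recovered from the steps of the FPKM values for 23569 genes, with recomputed FPKM within 4.9e-06 of the deposited values. Where all 6 values of a gene share a factor, its recovered fragments understate the true ones. Replicates differed by more than sampling noise (chi-square per degree of freedom 3.37 to 76.7).

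limma 3.58.1 in R 4.3.3 (lmFit, eBayes with a trend, two-sided) compared log2(FPKM + 0.1) of the 15353 genes averaging 0.1 FPKM or more over the libraries, without covariates. Fold changes on this scale understate those of low genes. In simulated data for this comparison, 198 of 200 genes changed 4-fold were called with the right sign among 15341 tested, and 14 unchanged genes were called. The simulation used the same dispersion for all genes and no shift with gene length, and it changed only genes above a minimum of fragments. It therefore does not give the error rates of the real libraries. Python 3.11.15 did the other steps. Levels in FPKM are means ± SD.

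The members and gene lists were chosen with earlier results of these data known. Named genes are the members, STUB1, the called list genes over 2-fold (otherwise up to 2 called genes with the largest change), 5 genes most correlated with CDH2, and markers. Pseudocounts, filters, scalings, the variance trend, a replicate block, left-out libraries and limma-voom on recovered fragments were tried as alternatives. Some genes of the lists are not reported here.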

Additional observations from a re-analysis of the deposited data

How the results depend on the processing

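CDH1, CDH17, CDH2 and JUP kept their direction and their call in 15 alternatives each, with log2 fold changes from -1.26 to -0.89, -1.67 to -1.22, 2.78 to 4.62 and -0.69 to -0.50. CDH6 did so in 14 (0.32 to 2.64), and at a filter of 1 FPKM it was not tested, which left 1 member called higher. CTNNB1 turned to -0.01 with median-ratio scaling, -0.06 with quantile normalization and -0.02 without oeNC replicate 3 (-0.02 to 0.04 with 1 library left out). CTNND1 turned to 0.20 without oeSTUB1 replicate 2 (-0.71 to 0.20). The replicate numbers did not pair the libraries (correlations of deviations -0.049, -0.052 and 0.062), and with the replicate number as a block 741 genes were higher, 747 lower, and 3 genes of the 7 lists higher. Leaving out 1 library gave 477 to 2274 higher and 456 to 1838 lower genes, the most without oeSTUB1 replicate 2, with 2 to 15 higher and 2 to 11 lower genes in the lists. Called with a change over 2-fold were 429 higher and 369 lower genes, against 120 and 120 with a pseudocount of 1 and 202 and 182 at a filter of 1 FPKM. The lists had 3 higher and 5 lower genes without a filter, 3 higher without a variance trend, and 5 lower at a filter of 1 FPKM. The cause of these shifts was not tested. Depth limits CDH3, CDH6, CDH11, CDH16, SNAI2, LEF1, CDX2 and CTNND1, which rest on few fragments in some or all libraries. The same holds for CDH2 and CDH4 in oeNC.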
